A study of Oncorhynchus mykiss with 9 samples.

Results

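NDRG1 and the lysophosphatidylcholine symporters are represented here by 3 genes of the rainbow trout: GSONMG00039939001, whose best protein match is NDRG1-like isoform X2, and GSONMG00051264001 and GSONMG00023958001, a pair of copies that both match sodium-dependent lysophosphatidylcholine symporter 1-like. They are 3 of the 46585 genes in the count tables, and all 3 passed the filter (5 or more reads in any 1 library) that left 31691 genes. They were chosen by their read levels in these same libraries, for a graded loss that is lowest with TNP-LPS, intermediate with TNP-KLH and highest in control cells, so their levels in the 3 groups are given as a description with no test. The samples were B cells carrying IgM on their surface, sorted from spleen leukocyte cultures of healthy female rainbow trout (Oncorhynchus mykiss) after 24 h. The cultures had received TNP-LPS, in which the hapten trinitrophenyl is carried by bacterial lipopolysaccharide (a thymus-independent antigen), TNP-KLH, in which the same hapten is carried by the protein keyhole limpet haemocyanin (a thymus-dependent antigen), or nothing (control). The antigen dose is 5 mg/ml per the labels and 5 µg/ml in the study's methods. There were 3 libraries per group, sequenced from total RNA with a kit that keeps the strand and holding 8080787 to 12164154 counts each, and it is not stated whether these 3 came from different fish, so p-values measure the spread between these libraries only. The antigens met whole leukocyte cultures and not the sorted cells alone, and the genes have no coordinates or sequences in the sources used here.

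NDRG1 (N-myc downstream regulated gene 1) is known in mammals as a cytoplasmic protein that is induced by hypoxia, nutrient stress and differentiation and that is repressed by N-Myc and c-Myc in dividing cells. It is phosphorylated by the kinase SGK1 and then by GSK3. The sodium-dependent lysophosphatidylcholine symporter 1, called MFSD2A in mammals, is a transporter of the major facilitator superfamily that carries lysophosphatidylcholine into cells together with sodium, and it is best known for bringing the omega-3 fatty acid DHA across the endothelium of the brain.

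NDRG1 was nearly lost with TNP-LPS and much reduced with TNP-KLH. Its read counts were 0, 0 and 4 in TNP-LPS replicates 1, 2 and 3, 24, 37 and 39 in TNP-KLH replicates 1, 2 and 3, and 156, 91 and 285 in control replicates 1, 2 and 3. As CPM (read counts scaled to library size with TMM factors) these were 0, 0 and 0.371 CPM with TNP-LPS, 2.62, 3.37 and 4.25 CPM with TNP-KLH, and 15.8, 9.51 and 22.2 CPM in control cells. No library of one group overlapped with another group, and the 3 groups stood in the order TNP-LPS, TNP-KLH, control. A share of 2.24% of all genes kept had this order with no overlap, and the order was the rule by which the gene was chosen. The 3 reads that a count of 0 allows correspond to 0.466 CPM in TNP-LPS replicate 1 and 0.317 CPM in TNP-LPS replicate 2, so low NDRG1 expression in these libraries was not detectable at this depth.

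The mean level of NDRG1 was 0.124 ± 0.214 CPM with TNP-LPS, 3.41 ± 0.818 CPM with TNP-KLH and 15.8 ± 6.33 CPM in control cells (SD, n = 3 each). On the log2 scale of the fit over all genes, the difference was −6.65 (SE 0.75) for TNP-LPS against control, −2.21 (SE 0.53) for TNP-KLH against control and −4.44 (SE 0.76) for TNP-LPS against TNP-KLH. The reads summed over a group gave a level with TNP-LPS that was 109.8-fold lower than in control (95% exact interval 42.6 to 404.5, counting error only). The 4 reads of TNP-LPS all came from replicate 3. Without this library the TNP-LPS group had no NDRG1 read. Taking 3 reads over the group as a floor gave a level 87.3-fold lower than in control cells and 18.1-fold lower than with TNP-KLH. Replicate 3 of control and of TNP-KLH, the highest library of each group, stayed in, so these values are a description and no bound. Set against the control library with the same replicate number, TNP-KLH libraries held 16.6, 35.4 and 19.2% of the control level in replicates 1, 2 and 3. The control libraries themselves differed by 2.33-fold between replicates 2 and 3.

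**Figure D1:**
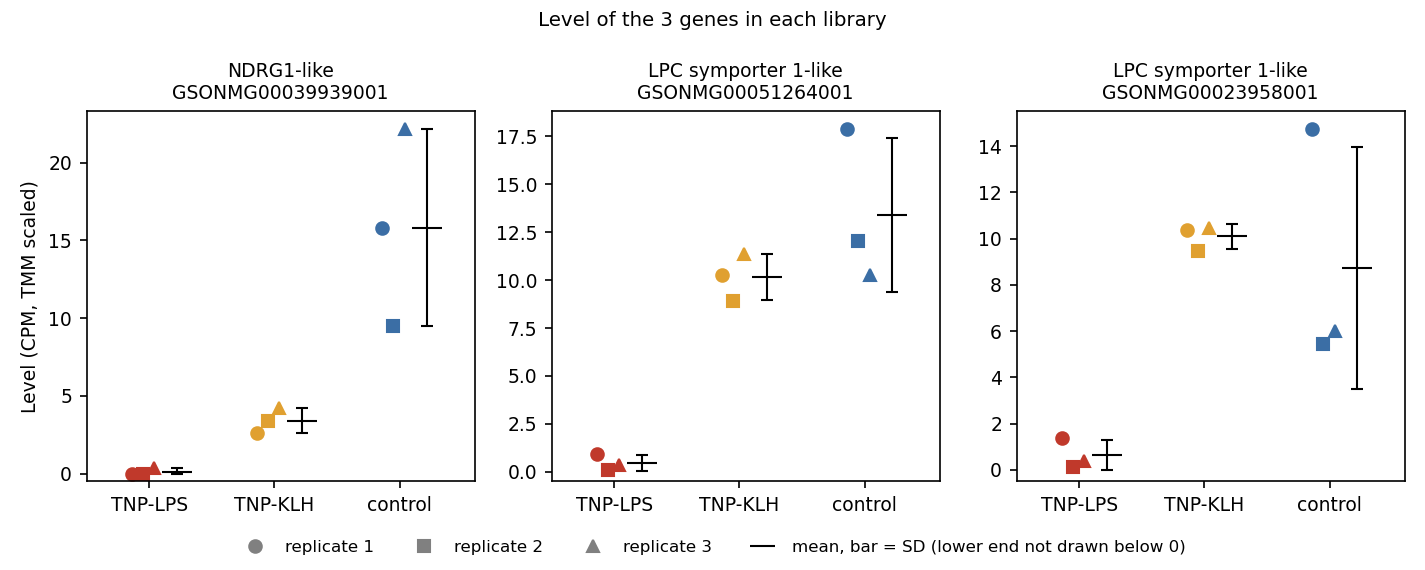
Level of NDRG1-like (left), GSONMG00051264001 (middle) and GSONMG00023958001 (right) in CPM in each library, with TNP-LPS, TNP-KLH and control from left to right in each panel; each point is 1 library, its shape gives the replicate number, and the black bar is the mean with the SD. NDRG1 stands in 3 separate steps, while for both symporters the TNP-KLH libraries, at 8.92 to 11.3 CPM, lie within or beside the range of the control libraries.

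The symporter GSONMG00051264001 was also nearly lost with TNP-LPS, but it was not separated between TNP-KLH and control. Its reads summed to 11 over the TNP-LPS libraries (6, 1 and 4 in replicates 1, 2 and 3), to 296 over the TNP-KLH libraries and to 424 over the control libraries. Its level was 0.932, 0.106 and 0.371 CPM with TNP-LPS, 10.3, 8.92 and 11.3 CPM with TNP-KLH, and 17.9, 12.0 and 10.3 CPM in control cells. The TNP-LPS libraries lay below all others, and TNP-KLH replicate 3 lay above control replicate 3. The means were 0.470 ± 0.422 CPM with TNP-LPS, 10.2 ± 1.21 CPM with TNP-KLH and 13.4 ± 4.0 CPM in control cells (SD, n = 3 each). The log2 difference was −4.92 (SE 0.52) for TNP-LPS against control, −4.52 (SE 0.52) for TNP-LPS against TNP-KLH and −0.40 (SE 0.39) for TNP-KLH against control. The last of these became −0.07 when control replicate 1 was left out.

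The other copy, GSONMG00023958001, did not follow the graded order at all. It had 9, 1 and 4 reads in TNP-LPS replicates 1, 2 and 3, 95, 104 and 96 in TNP-KLH replicates 1, 2 and 3, and 146, 52 and 77 in control replicates 1, 2 and 3. Its level was 1.40, 0.106 and 0.371 CPM with TNP-LPS, 10.4, 9.47 and 10.5 CPM with TNP-KLH, and 14.8, 5.43 and 5.99 CPM in control cells. Every TNP-KLH library exceeded control replicates 2 and 3, and control replicate 1 exceeded every TNP-KLH library. The means were 0.625 ± 0.682 CPM with TNP-LPS, 10.1 ± 0.549 CPM with TNP-KLH and 8.73 ± 5.23 CPM in control cells (SD, n = 3 each). The log2 difference was −3.92 (SE 0.69) for TNP-LPS against control and −4.13 (SE 0.69) for TNP-LPS against TNP-KLH, and the value for TNP-KLH against control, 0.21 (SE 0.55), became 0.89 without control replicate 1. The label of a graded loss over the 3 groups therefore fitted NDRG1, whereas the symporters had a low level with TNP-LPS and overlapping levels with TNP-KLH and in control cells. Every TNP-LPS library lay below every control library for all 3 genes, as it did for 15.2% of all genes kept, and below every TNP-KLH library, as for 9.36% of all genes kept. With TNP-KLH every library lay below every control library for NDRG1 alone among the 3, as for 8.72% of all genes kept.

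The symporter copies varied together from library to library. Summed, they stood at 1.09 ± 1.10 CPM with TNP-LPS, 20.3 ± 1.73 CPM with TNP-KLH and 22.1 ± 9.15 CPM in control cells (SD, n = 3 each), and the spread in control cells came from replicate 1 with 32.7 CPM, against 17.5 and 16.3 CPM in replicates 2 and 3. The log2 CPM of the copies had a Pearson correlation of 0.979 over the 9 libraries, which the low TNP-LPS libraries raised by the choice of the genes. It was 0.961 after the group means were taken out, where the TNP-LPS values rest on 1 to 9 reads per copy. In the 6 TNP-KLH and control libraries alone the correlation of these deviations was 0.894. The points of a library share its depth and scaling, and reads that fit both copies equally well could have been assigned to either, since the files do not resolve near-identical copies. The copies were not in a fixed ratio, however. GSONMG00051264001 took 44.0% of the reads of both with TNP-LPS (95% Wilson interval 26.7 to 62.9, 25 reads), 50.1% with TNP-KLH (46.1 to 54.1, 591 reads) and 60.7% in control cells (57 to 64.2, 699 reads), intervals that cover counting error only. By library the share was 40.0, 50.0 and 50.0% with TNP-LPS, 49.7, 48.5 and 52.0% with TNP-KLH, and 54.8, 68.9 and 63.2% in control cells, so no TNP-KLH library reached the lowest control library. This ratio was not used to choose the genes, but it comes from the same counts, and it was not tested.

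Inside the groups NDRG1 had little correlation with the symporters, as far as these few libraries show. Over all 9 libraries its log2 CPM had a correlation of 0.906 with GSONMG00051264001 and of 0.820 with GSONMG00023958001, which the low TNP-LPS libraries fixed by the choice of the genes. After the group means were taken out the values were −0.035 and −0.032, where the TNP-LPS values rest on few reads. In the 6 TNP-KLH and control libraries alone they were −0.060 and 0.176. Among control libraries NDRG1 was highest in replicate 3 and the symporters in replicate 1. With TNP-LPS the few symporter reads were most numerous in replicate 1, where NDRG1 had none, and the NDRG1 reads were all in replicate 3.

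**Figure D2:**
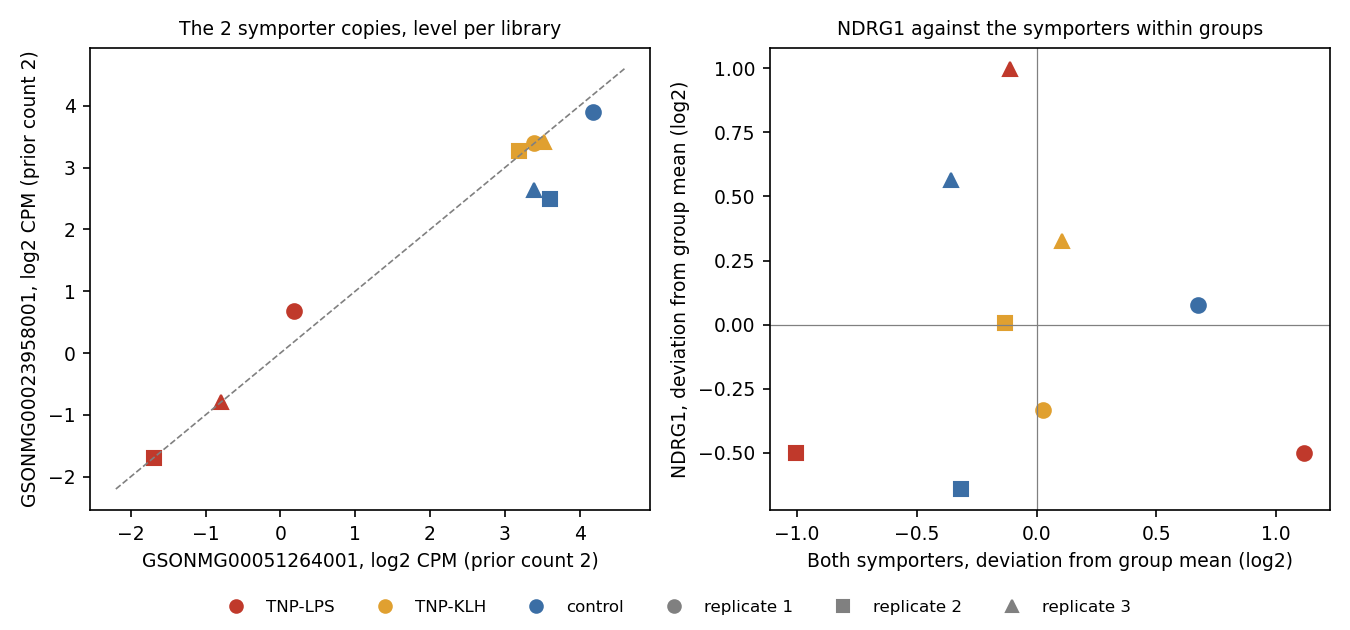
Left, log2 CPM of GSONMG00023958001 (vertical) against GSONMG00051264001 (horizontal) in the 9 libraries, with equal levels on the dashed line; right, deviation of NDRG1 from its group mean (vertical, log2) against that of the mean of both symporters (horizontal, log2). Colour gives the group and shape the replicate number. The copies follow each other (correlation 0.979, raised by the choice of genes low with TNP-LPS, and 0.894 for deviations from group means in the 6 TNP-KLH and control libraries). The 3 control libraries lie below the dashed line, and the right panel shows no common order of NDRG1 and the symporters within groups.

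Other genes followed these patterns over the 9 libraries, and those with the highest correlation of log2 CPM are given as a description. For NDRG1 they were filamin-B (GSONMG00042463001, correlation 0.991), an actin crosslinker, a G protein-coupled receptor kinase 6-like gene (GSONMG00038021001, 0.991), whose product desensitizes activated receptors, an SH3 domain-binding protein 2-like gene (GSONMG00081500001, 0.991), an adaptor of immune receptor signalling, toll-like receptor 13 (GSONMG00041579001, 0.988), which senses bacterial RNA in mice, and a homolog of the haematopoietic transcription factor TAL1 (GSONMG00014789001, 0.988). Toll-like receptor 13 stood at 18.2, 19.4 and 40.5 CPM with TNP-LPS, 89.0, 77.3 and 133.5 CPM with TNP-KLH and 301.5, 266.8 and 429.5 CPM in control cells, and was highest in replicate 3 of every group, as NDRG1 was. Within groups the correlation of its deviations with those of NDRG1 was 0.912. It was 0.910 for filamin-B, 0.924 for the receptor kinase 6-like gene, 0.838 for the SH3 domain-binding protein 2-like gene and 0.721 for the TAL1 homolog. These genes were picked by their correlation in the same libraries, which raises these values. The NDRG1 deviations with TNP-LPS rest on 0, 0 and 4 reads. For the mean of both symporters the leading genes were a CB1 cannabinoid receptor-interacting protein 1-like gene (GSONMG00072947001, 0.986), a pair of signal-induced proliferation-associated 1-like protein 3 genes (GSONMG00050716001 with 0.970 and GSONMG00062134001 with 0.967), a notch 2-like receptor gene (GSONMG00026622001, 0.970) and calcineurin subunit B type 1 (GSONMG00072946001, 0.961), the regulatory subunit of the calcium-dependent phosphatase that activates NFAT. The CB1-interacting gene stood at 0.621, 0.211 and 0.557 CPM with TNP-LPS, 5.56, 4.82 and 4.69 CPM with TNP-KLH and 7.89, 3.24 and 4.28 CPM in control cells, so it too was low with TNP-LPS and overlapped between TNP-KLH and control. Of 17034 genes with a mean of at least 5 CPM in 1 group, 3.52% had a correlation over 0.9 with NDRG1 and 0.757% with the symporters, and all these correlations share the library totals.

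The remaining NDRG family genes were tested in the fit over all genes (quasi-likelihood test of edgeR, p-values adjusted over 31691 genes after Benjamini and Hochberg). With TNP-LPS against control 16.8% of all genes passed the threshold of 0.05, with 10.0% higher and 6.73% lower. Of the 11 other NDRG genes kept, 2 fell and 0 rose with TNP-LPS, and their median log2 difference was −1.28, against −0.09 over all genes. The one with the most reads, NDRG3-like GSONMG00015728001, had 13.5, 15.0 and 21.1 CPM with TNP-LPS, 28.2, 28.9 and 29.3 CPM with TNP-KLH and 43.3, 57.1 and 52.8 CPM in control cells. Its groups did not overlap. It fell by 1.62 on the log2 scale with TNP-LPS (SE 0.22, edgeR adjusted p = 0.000953, 3 of 3 libraries below every control). An NDRG2-like gene at a low level, GSONMG00062600001, had 0.155, 0.106 and 0.371 CPM with TNP-LPS, 1.20, 0.546 and 0.872 CPM with TNP-KLH and 1.82, 3.24 and 4.05 CPM in control cells. It also stood in 3 separate steps and fell by 3.72 with TNP-LPS (SE 0.66, edgeR adjusted p = 0.00424). Without the 3 libraries numbered 2 its adjusted p was 0.0509, so that 1 of the 11 genes was called.

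Neither of these NDRG genes passed in the other comparisons. With TNP-KLH against control 0.877% of all genes passed (0.760% higher and 0.117% lower), and with TNP-LPS against TNP-KLH 2.87% did (2.12% higher and 0.745% lower). In both comparisons edgeR called 0 of the 11 genes, with 2 lower at an unadjusted p under 0.05, and DESeq2 called 1. For most of the 11, GSONMG00062600001 among them, DESeq2 gave no adjusted p in these comparisons and could not call them. With the replicate number as a block (the libraries of equal number deviated together), the NDRG3-like gene was called lower with TNP-KLH against control (log2 difference −0.83, edgeR adjusted p 0.115 without the block and 0.00670 with it) and with TNP-LPS against TNP-KLH (−0.80, 0.0845 without the block and 0.00612 with it). Under the block 6.05% of all genes were called higher and 4.23% lower with TNP-KLH against control, and 8.49% higher and 5.94% lower with TNP-LPS against TNP-KLH. The remaining NDRG genes were not called by edgeR, with or without the block, or by DESeq2 where it gave an adjusted p. The second NDRG1-like gene, GSONMG00013547001, was barely detected, at 0 CPM in all TNP-LPS libraries, in 2 of 3 TNP-KLH libraries and in 2 of 3 control libraries. NDRG2-like GSONMG00006326001 stood at 6.50 ± 1.24 CPM with TNP-LPS, 8.31 ± 1.84 CPM with TNP-KLH and 8.76 ± 0.561 CPM in control cells (SD, n = 3 each), a log2 difference of −0.42 (SE 0.26) for TNP-LPS against control.

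The 3 other symporter genes kept, all matching symporter 1-B-like, were at trace levels. Their group means lay between 0.277 and 1.16 CPM with TNP-LPS (GSONMG00012891001 and GSONMG00012455001), and for GSONMG00074313001 the means were 0.379 CPM with TNP-LPS, 0.806 CPM with TNP-KLH and 0.433 CPM in control cells. edgeR called 0 of 3 in each of the 3 comparisons, and 0 of 3 had an unadjusted p under 0.05. DESeq2 gave an adjusted p only with TNP-LPS against control, for GSONMG00074313001 (0.937) and GSONMG00012455001 (0.684). For GSONMG00012891001 and for the other comparisons it gave none, so it could not call them. The median log2 difference with TNP-LPS against control was 0.83 over these 3 genes, with SEs of 1.14 to 1.84, larger than each difference. The low level with TNP-LPS was thus measured in the pair of symporter 1-like copies, and at this depth no difference was detectable in the 1-B-like genes.

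**Figure D3:**
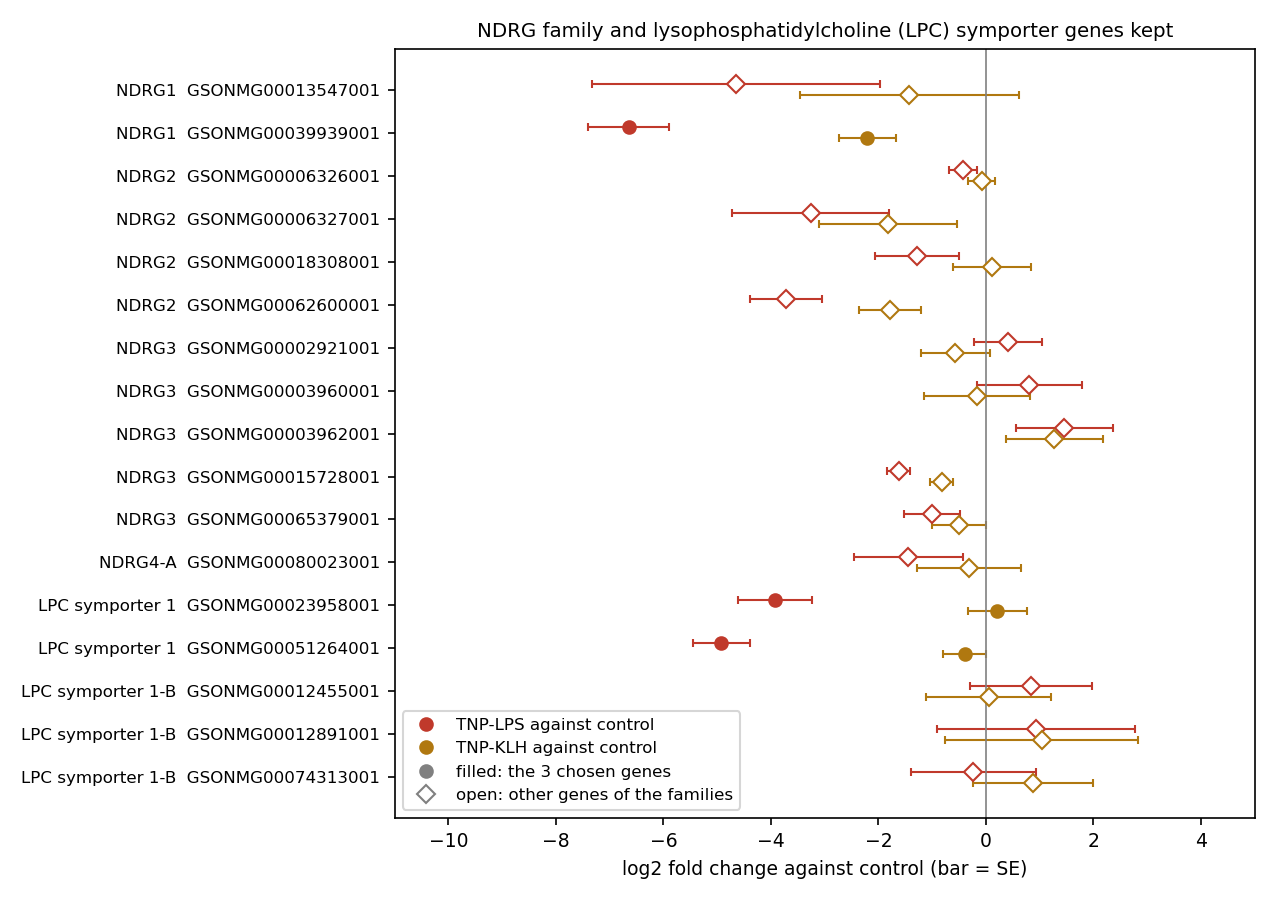
log2 fold change with its SE for every NDRG family and lysophosphatidylcholine symporter gene kept, with TNP-LPS against control in red above TNP-KLH against control in brown for each gene; filled points are the 3 chosen genes and open points the other members. The chosen genes lie at −6.65, −4.92 and −3.92 with TNP-LPS, and of the open points only NDRG3-like GSONMG00015728001 and NDRG2-like GSONMG00062600001 passed the test with TNP-LPS.

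The Myc network holds repressors of NDRG1 known from mammals, and whether its genes act on NDRG1 in these cells was not tested. Of 21 Myc, Max and Mxd genes tested, 5 rose (23.8%) and 2 fell (9.52%) with TNP-LPS against control, beside 10.0% higher and 6.73% lower over all genes, which also rose more often than they fell. A Myc-2-like transcription factor gene (GSONMG00066548001) had 199.4, 243.4 and 187.9 CPM with TNP-LPS, 116.8, 122.0 and 68.2 CPM with TNP-KLH and 30.3, 37.4 and 25.4 CPM in control cells, with no overlap between groups. It rose by 2.76 on the log2 scale with TNP-LPS (SE 0.28, edgeR adjusted p = 0.0003). It rose by 1.72 with TNP-KLH (SE 0.27, edgeR adjusted p = 0.0364), the 1 call of the pathway lists in this comparison, and this call was lost without any library other than TNP-LPS replicate 1, with adjusted p-values up to 0.147. Leaving out any of those libraries left at most 1 call over all genes in this comparison. For the Myc-2-like gene the adjusted p with TNP-KLH was 6.16e-07 by DESeq2 and 7.00e-05 by edgeR with the replicate block. The myc proto-oncogene (GSONMG00068469001) averaged 416.4 ± 151.6 CPM with TNP-LPS, 333.3 ± 144.0 CPM with TNP-KLH and 100.8 ± 28.0 CPM in control cells (SD, n = 3 each). It rose by 2.05 with TNP-LPS (SE 0.39, edgeR adjusted p = 0.00565), and its log2 difference with TNP-KLH was 1.73 (SE 0.38), with an edgeR adjusted p of 0.0727 that became 7.27e-05 with the replicate block. Max (GSONMG00014386001), the partner of Myc, rose by 0.82 with TNP-LPS (SE 0.19, edgeR adjusted p = 0.0170), which did not pass without control replicate 1 or TNP-LPS replicate 3 (adjusted p up to 0.0566). Max dimerization protein 1 (GSONMG00043478001), which competes with Myc for Max, fell by 2.93 (SE 0.58, edgeR adjusted p = 0.00723). The replicate block gave 8 genes higher and 4 lower of the 21, with 16.3% higher and 14.2% lower over all genes. The counts were 2 higher without control replicate 1, 3 higher without control replicate 2, TNP-LPS replicate 2 or TNP-LPS replicate 3, 1 lower without control replicate 1 or 3, TNP-KLH replicate 1 or any TNP-LPS library, and 2 higher and 1 lower without the libraries numbered 2.

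Hypoxia and growth arrest are states in which NDRG1 is induced in mammals, and a link of these states to NDRG1 in these cells was not tested. Of 65 genes of these states tested, 10 fell (15.4%) and 4 rose (6.15%) with TNP-LPS against control, beside 6.73% lower and 10.0% higher over all genes. The median log2 difference was −0.55, against −0.09 over all genes. Their summed level overlapped between the groups. In replicates 1, 2 and 3 it was 1340, 2953 and 1897 CPM with TNP-LPS and 1504, 3257 and 1984 CPM with TNP-KLH. In control replicates 1, 2 and 3 it was 1337, 2991 and 2106 CPM. The 4 genes named below are those of smallest p, and none of them is among the 4 that rose. The hypoxia-inducible factor 1-alpha-like gene (GSONMG00046298001), the oxygen-regulated subunit of the factor, had 16.3, 15.5 and 19.7 CPM with TNP-LPS, 24.1, 28.5 and 31.1 CPM with TNP-KLH and 40.1, 46.7 and 45.7 CPM in control cells. It fell by 1.36 with TNP-LPS (SE 0.19, edgeR adjusted p = 0.00116). Its target vascular endothelial growth factor A-like (GSONMG00056416001) averaged 3.34 ± 1.68 CPM with TNP-LPS, 8.15 ± 3.10 CPM with TNP-KLH and 25.0 ± 9.32 CPM in control cells (SD, n = 3 each), a fall by 2.87 with TNP-LPS (SE 0.48, edgeR adjusted p = 0.00285). Thioredoxin-interacting protein-like (GSONMG00062121001), which restrains glucose uptake and growth, fell by 1.76 (SE 0.29, edgeR adjusted p = 0.00277). Pyruvate dehydrogenase kinase 3 (GSONMG00027187001), which holds pyruvate back from oxidation in mitochondria, fell by 1.31 (SE 0.26, edgeR adjusted p = 0.00797). These 4 genes all had lower group means with TNP-KLH than in control cells, with log2 differences of −0.66 to −1.62 that edgeR did not call (adjusted p 0.140 to 0.20) and that all passed with the replicate block (0.000498 to 0.0298). The replicate block gave 19 genes lower and 7 higher of the 65 with TNP-LPS against control, with 14.2% of all genes lower and 16.3% higher in that fit. The counts were 6 lower without TNP-LPS replicate 1, 2 higher without control replicate 2, and 4 lower and 1 higher without the libraries numbered 2.

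Of 21 genes for the kinases that act on NDRG1 (SGK and GSK3) and for the TORC2 complex that activates SGK1, 1 fell (4.76%, beside 6.73% over all genes) and 0 rose with TNP-LPS against control by edgeR. At an unadjusted p under 0.05 there were 3 higher and 2 lower, and DESeq2 called 1 higher and 1 lower. The gene that fell was Sgk3-like GSONMG00024137001, which fell by 0.96 (SE 0.24, edgeR adjusted p = 0.0240), and the call was lost without control replicate 3, TNP-LPS replicate 1 or TNP-LPS replicate 2 (adjusted p up to 0.0882), and without the libraries numbered 2 (0.172). GSK3 beta-like GSONMG00004220001 stood at 23.4 ± 3.30 CPM with TNP-LPS and 13.7 ± 4.72 CPM in control cells (SD, n = 3 each), with an edgeR adjusted p of 0.104 that became 0.00365 with the replicate block. With the block 2 of the 21 were higher, beside 16.3% over all genes, and 2 were higher without control replicate 3.

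Of 19 other MFSD genes tested, transporters of the superfamily of the symporters, 5 fell and 0 rose with TNP-LPS against control, a share of 26.3% against 6.73% lower over all genes, and the median log2 difference was −0.56. MFSD7-like GSONMG00064704001 had 10.6, 6.13 and 15.3 CPM with TNP-LPS, 23.9, 33.1 and 27.1 CPM with TNP-KLH and 41.9, 66.3 and 56.4 CPM in control cells. It fell by 2.36 with TNP-LPS (SE 0.33, edgeR adjusted p = 0.0013), and its groups did not overlap. A further MFSD7-like gene (GSONMG00066929001) fell by 2.53 (SE 0.44, edgeR adjusted p = 0.00362). The MFSD10 genes GSONMG00071658001 and GSONMG00071659001 fell by 1.46 (SE 0.35) and 1.78 (SE 0.44), with edgeR adjusted p-values of 0.0176 and 0.0205. Their identifiers are consecutive and they match isoforms of the same protein, so whether they are separate genes is not known here. The share of 26.3% counts each of them. Both calls were lost without TNP-LPS replicate 1 or TNP-LPS replicate 2, the one of GSONMG00071658001 also without control replicate 2 and the one of GSONMG00071659001 also without control replicate 1 (adjusted p up to 0.0739). The count of the list was 3 without control replicate 1, control replicate 2 or TNP-LPS replicate 2, 2 without TNP-LPS replicate 1, and 1 without the libraries numbered 2.

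For uptake of fatty acids and lipoproteins, 3 of 58 genes rose (5.17%) and 4 fell (6.90%) with TNP-LPS against control, shares below or close to the 10.0% higher and 6.73% lower over all genes. Their median log2 difference was −0.50, against −0.09 over all genes. The low-density lipoprotein receptor-related protein 8-like gene (GSONMG00067483001), a lipoprotein receptor, had 10.2, 9.51 and 12.8 CPM with TNP-LPS, 3.27, 1.64 and 3.6 CPM with TNP-KLH and 1.21, 1.04 and 2.26 CPM in control cells, the reverse of the order of NDRG1 except that TNP-KLH and control overlapped. It rose by 2.82 with TNP-LPS against control (SE 0.41, edgeR adjusted p = 0.00145) and by 1.94 against TNP-KLH (SE 0.39, edgeR adjusted p = 0.0343, lost without each library other than control replicates 2 and 3). Against TNP-KLH its adjusted p was 0.000377 by DESeq2 and 0.000482 by edgeR with the replicate block. Scavenger receptor class B member 1 (GSONMG00046753001), the receptor of high-density lipoprotein, fell by 2.58 (SE 0.58, edgeR adjusted p = 0.0129, 0.0585 without TNP-LPS replicate 2), and long-chain fatty acid transport protein 4 (GSONMG00020859001) rose by 1.78 (SE 0.41, edgeR adjusted p = 0.0145, 0.0665 without TNP-LPS replicate 3). The replicate block gave 6 higher and 14 lower of the 58 (16.3% and 14.2% over all genes), and without the libraries numbered 2 the counts were 2 and 0. Leaving out TNP-LPS replicate 3 gave 1 higher and 2 lower, and leaving out control replicate 2 or TNP-LPS replicate 2 gave 2 or 1 lower.

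Of 33 acyl-CoA synthetase genes, which join fatty acids to coenzyme A, edgeR called 5 higher and 0 lower with TNP-LPS against control. The share of 15.2% higher stood beside 10.0% over all genes, 6 genes were higher and 5 lower at an unadjusted p under 0.05, and DESeq2 called 5 higher and 3 lower. The called gene of smallest p, acyl-CoA synthetase family member 3 (GSONMG00038211001), is known in mammals as a mitochondrial malonyl-CoA synthetase and not as a long-chain one. It rose by 1.41 (SE 0.26, edgeR adjusted p = 0.00547). The ACSL4 genes, whose product prefers polyunsaturated fatty acids, were also called. GSONMG00013487001 had 22.4, 14.3 and 27.7 CPM with TNP-LPS, 14.8, 10.2 and 17.7 CPM with TNP-KLH and 8.09, 3.13 and 4.12 CPM in control cells, and rose by 2.07 (SE 0.40, edgeR adjusted p = 0.00636). GSONMG00066615001 rose by 1.89 (SE 0.47, edgeR adjusted p = 0.0212), which did not pass without control replicate 2, TNP-LPS replicate 2 or TNP-LPS replicate 3 (adjusted p up to 0.0663). ACSL3-like GSONMG00035730001 rose by 1.00 (SE 0.23, edgeR adjusted p = 0.0135). With the replicate block the list had 6 higher and 7 lower, beside 16.3% higher and 14.2% lower over all genes, so that the calls went both ways. It was 3 higher without TNP-LPS replicate 2, 3 higher and 3 lower without TNP-LPS replicate 3, 1 lower without control replicate 3, and 1 higher and 0 lower without the libraries numbered 2.

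Among phospholipid remodelling enzymes 2 of 65 rose (3.08%) and 4 fell (6.15%) with TNP-LPS against control, both shares below those over all genes (10.0% and 6.73%). Their median log2 difference was −0.38, against −0.09 over all genes. The lysophospholipid acyltransferase LPCAT4-like gene (GSONMG00070323001), which turns lysophosphatidylcholine back into phosphatidylcholine, had 29.2, 29.6 and 30.7 CPM with TNP-LPS, 65.3, 60.4 and 61.4 CPM with TNP-KLH and 59.2, 45.6 and 49.9 CPM in control cells. Like the symporters it was low with TNP-LPS only, by 0.79 below control (SE 0.18, edgeR adjusted p = 0.0132, 0.0512 without control replicate 1). Against TNP-KLH it fell by 1.06 (SE 0.18, edgeR adjusted p = 0.0250, lost without any 1 TNP-LPS or TNP-KLH library, with values up to 0.128). Without TNP-LPS replicate 1 or 2 or any TNP-KLH library at most 4 of all genes were called there. The adjusted p of the LPCAT4-like gene against TNP-KLH was 8.29e-08 by DESeq2 and 0.000540 by edgeR with the replicate block. Its log2 difference of TNP-KLH against control was 0.27 (SE 0.18, edgeR adjusted p = 0.589). A 1-acyl-glycerol-3-phosphate acyltransferase gamma-like gene (GSONMG00035355001) rose by 1.82 with TNP-LPS (SE 0.34, edgeR adjusted p = 0.00532). With the replicate block 5 of the 65 were higher and 10 lower, beside 16.3% higher and 14.2% lower over all genes. The count was 2 lower without control replicate 1, TNP-LPS replicate 2 or TNP-LPS replicate 3, 1 higher without each library other than control replicates 1 and 3, and 1 higher and 0 lower without the libraries numbered 2.

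Of 26 receptors and related genes of the lysophospholipids, 2 rose (7.69%) and 1 fell (3.85%) with TNP-LPS against control, both shares below those over all genes. The gene that fell, sphingosine 1-phosphate receptor 4-like (GSONMG00075704001), a receptor of lymphocytes for a bioactive lysophospholipid, had 8.23, 5.49 and 11.1 CPM with TNP-LPS, 56.6, 46.1 and 51.5 CPM with TNP-KLH and 127.0, 55.1 and 92.1 CPM in control cells. Its TNP-LPS libraries lay far below all others, and TNP-KLH replicate 1 lay above control replicate 2. It fell by 3.46 with TNP-LPS against control (SE 0.37, edgeR adjusted p = 0.000328) and by 2.63 against TNP-KLH (SE 0.35, edgeR adjusted p = 0.0235, lost without any TNP-KLH library or without TNP-LPS replicate 1 or 2, with values up to 0.0959). Against TNP-KLH its adjusted p was 1.97e-10 by DESeq2 and 1.78e-05 by edgeR with the replicate block. Leaving out any of those libraries left at most 4 calls over all genes in that comparison. Phospholipid phosphatase 1-like (GSONMG00070737001), which degrades such lipids, rose by 2.13 (SE 0.37, edgeR adjusted p = 0.00397). The replicate block gave 2 higher and 4 lower of the 26, beside 16.3% higher and 14.2% lower over all genes. The count was 1 higher without control replicate 1, control replicate 3 or TNP-LPS replicate 1, and 2 lower without control replicate 2 or TNP-KLH replicate 3.

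Over all the pathway lists together, 322 genes other than the chosen 3 were tested. With TNP-LPS against control 21 rose (6.52%) and 29 fell (9.01%), beside 10.0% higher and 6.73% lower over all genes. The median log2 difference of the 322 was −0.35 there, against −0.09 over all genes. By list it was positive for the Myc network (0.19), the acyl-CoA synthetases (0.08) and the symporter 1-B-like genes (0.83), and negative for the other lists. With TNP-KLH against control 1 rose (0.311%) and 0 fell, beside 0.760% and 0.117% over all genes. With TNP-LPS against TNP-KLH 1 rose (0.311%) and 2 fell (0.621%), beside 2.12% and 0.745% over all genes. With TNP-KLH against control 14 were higher and 17 lower at an unadjusted p under 0.05, and DESeq2 called 7 higher and 4 lower. With the replicate block 36 rose and 67 fell with TNP-LPS against control, beside 16.3% higher and 14.2% lower over all genes. In that fit 13 rose and 23 fell with TNP-KLH against control, beside 6.05% and 4.23% over all genes. With TNP-LPS against TNP-KLH 10 rose and 30 fell in it, beside 8.49% and 5.94%. Without the libraries numbered 2 the counts with TNP-LPS against control were 9 and 8, and the other comparisons had no call.

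**Figure D4:**
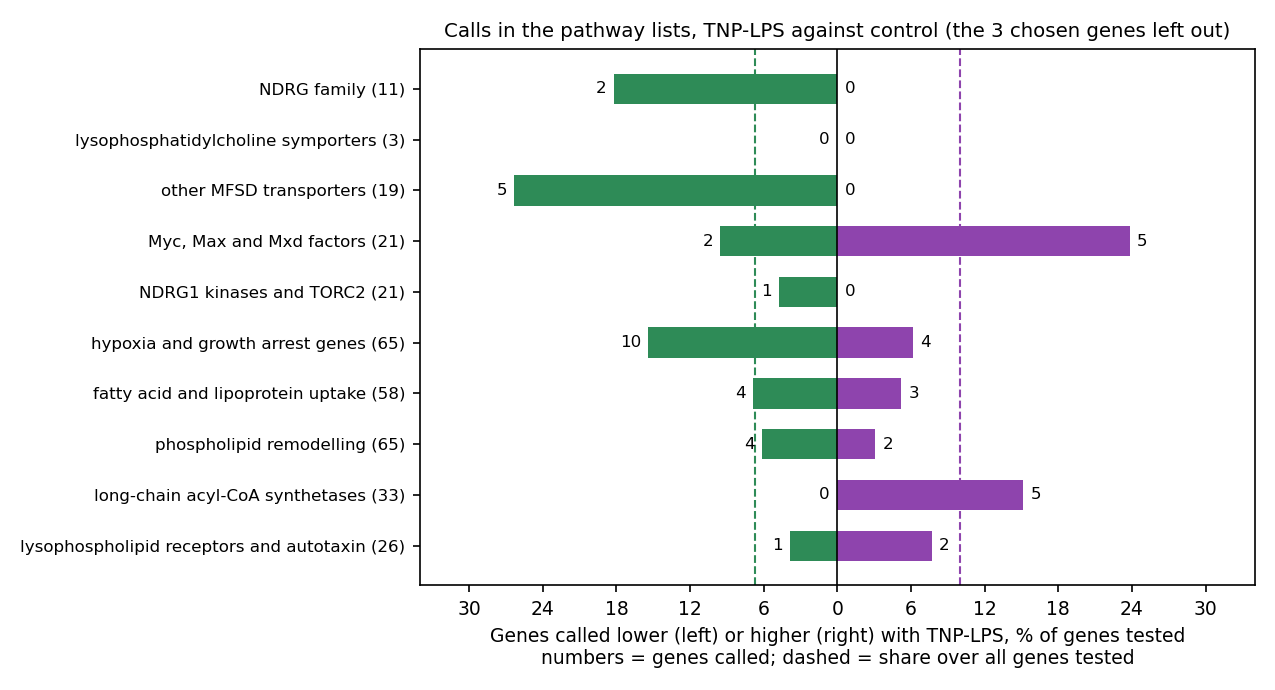
Share of the genes tested in each pathway list that edgeR called lower (green, to the left) or higher (purple, to the right) with TNP-LPS against control, in percent, with the number called at the end of each bar and the number tested in brackets; the dashed lines are the shares over all genes, 6.73% lower and 10.0% higher. The bars of the MFSD transporters, the NDRG family, the hypoxia genes, the Myc network and, by a narrow margin, fatty acid and lipoprotein uptake pass the line on the lower side, and those of the Myc network and the acyl-CoA synthetases on the higher side.

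Markers of other cells were followed because the genes described are also known from such cells, and in bulk samples fewer cells of a type and less RNA per cell cannot be told apart. B cell markers were present in every library, with CD79A-like GSONMG00053375001 (B-cell antigen receptor complex-associated protein alpha chain, the signalling chain of surface immunoglobulin) at 119.4 to 151.3 CPM with TNP-LPS, 236.2 to 422.8 CPM with TNP-KLH and 479.0 to 652.3 CPM in control cells. It fell by 2.14 with TNP-LPS against control (SE 0.26, edgeR adjusted p = 0.000588). Of 46 B cell markers, 9 fell (19.6%, beside 6.73% over all genes) and 0 rose with TNP-LPS (16 fell with the block on replicate number, beside 14.2% over all genes, and 4 when the libraries numbered 2 were left out), and 1 of the 56 in the tables had no read in any library. Their summed level was 2618 to 2925 CPM with TNP-LPS, 3421 to 3839 CPM with TNP-KLH and 4362 to 5146 CPM in control cells, so the sum stood in the same order as NDRG1. By gene the direction between TNP-KLH and control was mixed. There 25 of the 46 had a positive log2 difference, with a median of 0.11 against −0.03 over all genes. By edgeR 0 were called, beside 0.877% over all genes, and 7 were lower and 0 higher at an unadjusted p under 0.05. DESeq2 called 4 lower and 0 higher. The replicate block gave 6 lower and 2 higher, beside 4.23% lower and 6.05% higher over all genes. CD79A-like GSONMG00019605001 and GSONMG00053375001 and the beta chain gene GSONMG00069455001 had log2 differences of −0.80, −0.82 and −0.69 (edgeR adjusted p 0.188 to 0.209, DESeq2 adjusted p 0.0356 to 0.0419).

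Endothelial markers, followed because the mammalian symporter is known from endothelium, summed to 115.2 to 125.8 CPM over 37 genes with TNP-LPS, 82.3 to 137.9 CPM with TNP-KLH and 80.5 to 186.1 CPM in control cells. The sums overlapped, but the median log2 difference of the 37 genes with TNP-LPS against control was −1.57, against −0.09 over all genes, and 5 of the 37 had a positive one. By edgeR 9 fell (24.3%, beside 6.73% over all genes) and 1 rose, with 11 lower in the replicate block (14.2% over all genes), and 3 of the 47 in the tables had no read in any library. The count that fell was 1 without TNP-LPS replicate 1, without TNP-LPS replicate 3 or without the libraries numbered 2, and 3 without control replicate 2, control replicate 3 or TNP-LPS replicate 2. The called gene of smallest p, Tie-1-like GSONMG00002332001, a receptor tyrosine kinase of endothelium, had 0.776, 0.951 and 2.04 CPM with TNP-LPS, 2.51, 1.09 and 4.25 CPM with TNP-KLH and 10.7, 12.3 and 27.9 CPM in control cells. It fell by 3.71 with TNP-LPS (SE 0.61, edgeR adjusted p = 0.00269, 0.0324 without the libraries numbered 2), and like NDRG1 it was highest in replicate 3 of every group. Tie-1-like GSONMG00028070001 and GSONMG00002333001 were also called lower (edgeR adjusted p 0.0204 and 0.0208). GSONMG00002332001 and GSONMG00002333001 have consecutive identifiers, as do some of the von Willebrand factor models below. Most of the 9 that fell match Tie-1 or von Willebrand factor, so they may stand for fewer separate genes. The gene that rose was stabilin-2 (GSONMG00005860001), by 1.49 (SE 0.33, edgeR adjusted p = 0.0118). The cadherin-5-like gene GSONMG00064142001, which marks endothelial junctions, had 3.11, 0 and 0 CPM with TNP-LPS, 2.94, 1.73 and 0 CPM with TNP-KLH and 1.21, 7.42 and 0 CPM in control cells. It was not called with TNP-LPS against control (edgeR adjusted p 0.630), nor was vascular endothelial growth factor receptor 2 (GSONMG00023323001, edgeR adjusted p 0.214). The 7 von Willebrand factor-like gene models, a clotting factor of endothelium and platelets, were chosen after their values were seen. They summed to 1.24, 5.60 and 4.46 CPM with TNP-LPS, 7.96, 50.1 and 50.0 CPM with TNP-KLH and 7.48, 65.7 and 43.0 CPM in control cells, low with TNP-LPS like the symporters and overlapping between TNP-KLH and control. These models are part of the 37 endothelial markers. The 4 of the 7 that edgeR called lower with TNP-LPS against control are among the 9 that fell, and the 5 called with the replicate block are among the 11. As the models were picked by their values, these counts are a description and no further result. Within groups their deviations correlated with those of the symporters at −0.34 to −0.75. Control replicate 1, where the symporters were highest at 32.7 CPM, had the lowest von Willebrand factor level of the control libraries. What these values mean for the symporters was not tested.

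Thrombocyte markers summed to 79.2 to 103.7 CPM over 14 genes with TNP-LPS, 91.2 to 144.0 CPM with TNP-KLH and 134.0, 466.1 and 219.8 CPM in control replicates 1, 2 and 3. With TNP-LPS against control 5 of 14 fell (35.7%, beside 6.73% over all genes) and 0 rose (9 lower with the replicate block, with 14.2% over all genes, 2 without control replicate 2, TNP-LPS replicate 2, TNP-LPS replicate 3 or the libraries numbered 2, and 3 without TNP-KLH replicate 1 or 3), and 1 of the 16 in the tables had no read. The thrombopoietin receptor-like gene GSONMG00024376001 had 1.09, 0.422 and 1.39 CPM with TNP-LPS, 1.20, 1.91 and 2.94 CPM with TNP-KLH and 6.98, 24.9 and 11.4 CPM in control cells, and fell by 3.88 with TNP-LPS (SE 0.61, edgeR adjusted p = 0.00219). The thrombocyte sum, like NDRG1, had its lowest library with TNP-LPS and its highest in control cells. Among control libraries NDRG1 was lowest in replicate 2, where that sum was highest. What these orders mean for NDRG1 was not tested. Erythrocyte markers summed to 85.3 to 434.2 CPM with TNP-LPS, to 258.6, 2423 and 86.7 CPM in TNP-KLH replicates 1, 2 and 3 and to 299.1, 6975 and 151.8 CPM in control replicates 1, 2 and 3, of which haemoglobin took 0.228% of all counts in TNP-KLH replicate 2 and 0.703% in control replicate 2. By edgeR 1 of 32 fell with TNP-LPS (3.12%, beside 6.73% over all genes, and 24 with the replicate block, beside 14.2%, 2 without control replicate 1, and 0 without control replicate 2, any TNP-LPS library or the libraries numbered 2), and 9 of the 43 in the tables had no read. The median log2 difference with TNP-LPS against control was −3.42 for the erythrocyte markers (6 of 32 positive) and −2.38 for the thrombocyte markers (0 of 14 positive).

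For T and NK cells 1 of 25 markers rose and 1 fell with TNP-LPS against control, for monocytes and macrophages 4 of 40 fell and for neutrophils 1 of 6 fell, beside 10.0% higher and 6.73% lower over all genes. With the replicate block the counts that fell were 7, 13 and 2, beside 14.2% over all genes. Without TNP-LPS replicate 2 the T and NK cell count was 0 and the monocyte and macrophage count 2, and the neutrophil call was lost without control replicate 1 or 3, any TNP-KLH library or TNP-LPS replicate 1 or 3. The summed monocyte and macrophage markers stood at 900.3, 358.7 and 327.5 CPM in TNP-LPS replicates 1, 2 and 3 and at 1023, 806.4 and 763.6 CPM in control replicates 1, 2 and 3, lower with TNP-LPS for every replicate number. Their median log2 difference was −1.52, and 13 of 40 were lower at an unadjusted p under 0.05. The sums for T and NK cells (43.1 to 89.0 CPM with TNP-LPS, 61.8 to 182.2 CPM in control cells) and for neutrophils (83.5 to 112.0 CPM with TNP-LPS, 80.0 to 102.2 CPM in control cells) overlapped between TNP-LPS and control, with no common direction over the replicate numbers. By gene the median log2 difference with TNP-LPS against control was −1.16 for T and NK cells (5 of 25 positive) and −0.61 for neutrophils (2 of 6 positive), against −0.09 over all genes. With TNP-KLH the neutrophil sums were 163.8, 184.7 and 204.6 CPM in replicates 1, 2 and 3, above every control library. There edgeR called 1 of 6 higher and 0 lower (16.7%, beside 0.760% higher over all genes), and 3 of 6 had a positive log2 difference. The part of other cells in the levels of NDRG1 and the symporters was not tested. Without the 3 libraries numbered 2, which hold the libraries with the most haemoglobin, NDRG1 stood at 0 and 0.371 CPM with TNP-LPS, 2.62 and 4.25 CPM with TNP-KLH and 15.8 and 22.2 CPM in control cells. That these groups do not overlap follows from the lack of overlap over all 9 libraries and is no separate result.

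**Figure D5:**
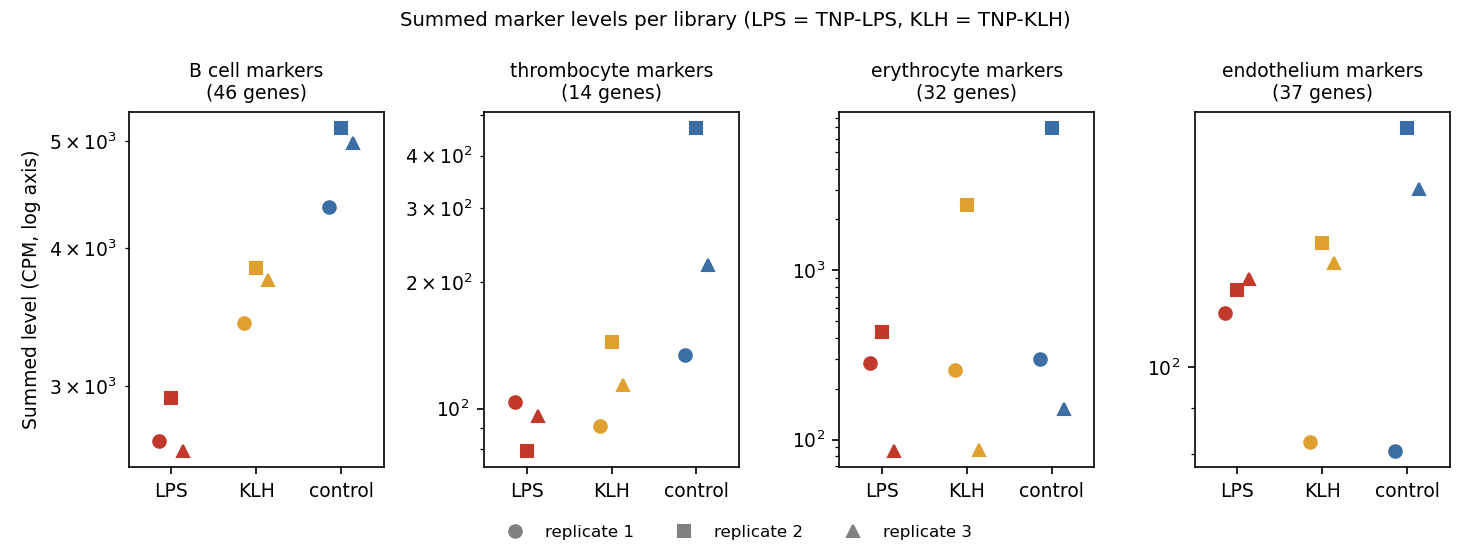
Summed level of the B cell, thrombocyte, erythrocyte and endothelium markers in each library, in CPM on log axes that differ between panels, with TNP-LPS, TNP-KLH and control from left to right; each point is 1 library and its shape gives the replicate number. The sum of the B cell markers stands in 3 steps from 2618 to 5146 CPM, while by gene the direction between TNP-KLH and control was mixed. The erythrocyte markers are high in replicate 2 with TNP-KLH (2423 CPM) and in control cells (6975 CPM), and the endothelium panel shows overlap of all groups.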

How the data were processed

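Read counts per gene were deposited by the authors, who trimmed adapters, mapped reads with TopHat to the Genoscope trout genome and counted them per gene with SAMtools and HTSeq, with no normalization. For the tool versions and for strand in counting, nothing is given in the sources used here, so reads of overlapping antisense genes and of near-identical copies may not be told apart. The 3 deposited tables hold identical counts for the 9 libraries, and their columns of means, fold changes and p-values from the authors' DESeq comparisons were not used. Library totals were 8080787 to 12164154 counts, and TMM factors 0.797 to 1.10. Libraries of a group differed by a chi-square of 20.2 to 62.9 per gene, so none was a copy of another library of its group. Pairs from different groups were not compared in this way. None of the identifiers (0) matched the RefSeq table.

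Genes with at least 5 reads in 1 library were tested with edgeR 4.0.16 (quasi-likelihood, TMM, R 4.3.3) in 1 fit of all 9 libraries with 3 groups, adjusted by Benjamini-Hochberg at 0.05. The common coefficient of variation was 0.446. SEs are the log2 fold change over the square root of F, and a prior count of 2 was used for log2 CPM. The code was tested on simulated data. Figures were drawn with matplotlib 3.10.9. Replicate numbers pair the samples by the data and not by any label: deviations from group means correlated at 0.227 to 0.646 in all 9 pairs of equal number and at −0.499 to 0.0345 in the 18 others. The deviations of a group sum to 0, so positive values in pairs of equal number draw the others below 0. The 18 others are therefore no separate comparison.

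The 3 genes and the lists, which are words in protein descriptions, were chosen with earlier results of these data known. Named are the 3 genes, the kept genes of both families, up to 4 genes of smallest p per other pathway list, the 5 genes most correlated with NDRG1 and with the symporters (at least 5 CPM in 1 group), and markers that were called, at 0 or shown beside a result. Alternatives were DESeq2 1.42.0, its size factors, plain totals, other filters and prior counts, the replicate block, 2-group fits, each library left out and, chosen after seeing the data, the libraries numbered 2 left out.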

Additional observations from a re-analysis of the deposited data

How the results depend on the processing

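With 3 libraries per group and members of few reads, levels under about 0.5 CPM were at the limit of this depth. The log2 differences of TNP-LPS against control and against TNP-KLH were negative for NDRG1 and both symporters under all 17 alternative fits, as was NDRG1 with TNP-KLH against control. Leaving out 1 library at a time gave, for TNP-LPS against control, −10.26 to −6.08 for NDRG1, −5.69 to −4.43 for GSONMG00051264001 and −5.07 to −3.29 for GSONMG00023958001. For TNP-LPS against TNP-KLH it gave −8.05 to −3.87, −5.31 to −4.03 and −5.30 to −3.60 in the same order of genes, and for TNP-KLH against control −2.40 to −1.83, −0.50 to −0.066 and 0.034 to 0.89. The lowest NDRG1 values came without TNP-LPS replicate 3, which held all its reads in that group, and are no bound. With a prior count of 0.5 the NDRG1 difference of mean log2 CPM was −7.18 against control and −5.04 against TNP-KLH, in place of −5.72 and −3.63. Plain library totals moved the median of all genes to −0.31 with TNP-LPS against control, from −0.09.

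The calls over all genes with TNP-LPS against control were 5314 (9656 with the replicate block, 2506 without the libraries numbered 2, 3654 to 4761 with 1 library left out). With TNP-KLH against control they were 278 (1424 with DESeq2, 3258 with the replicate block, 0 in a fit of these 2 groups alone, where 3632 genes had an unadjusted p under 0.05, and 0 without the libraries numbered 2). They were 0 to 356 with 1 library left out, 356 without TNP-LPS replicate 1 and at most 1 without any other library. With TNP-LPS against TNP-KLH they were 909, with 673 higher and 236 lower (2321 with DESeq2, 4575 with the replicate block, 0 without the libraries numbered 2, and 41 in a fit of these 2 groups alone, with 11 higher and 30 lower). They were 0 to 851 with 1 library left out, and at most 4 without TNP-LPS replicate 1 or 2 or any TNP-KLH library. The cause of these shifts was not tested.

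With TNP-LPS against control 6 values of uncalled family genes changed sign. NDRG3-like GSONMG00065379001 (−1.0) was 0.061 without the libraries numbered 2, and NDRG3-like GSONMG00003960001 (0.81) was −0.74 without TNP-LPS replicate 1 and at most 1.32 without another library. Symporter 1-B-like GSONMG00074313001 (−0.24) was 0.82 without control replicate 1 and 0.25 without TNP-LPS replicate 3 (lowest −0.79), GSONMG00012455001 (0.83) was −0.44 without TNP-LPS replicate 3 (highest 1.92), and GSONMG00012891001 (0.93) was −0.32 without TNP-LPS replicate 1 (highest 4.40). Among the other genes of both families and the 4 of smallest p in each other list, cell markers included, 50 were called with TNP-LPS against control. Of these, 24 were called without the libraries numbered 2 and none (0) changed sign. They are a different set from the 21 higher and 29 lower of all pathway lists together, and the correlated genes are not among them. The replicate block changed no direction of the 3 chosen genes.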
